A study of Homo sapiens with 8 samples.

Results

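The genes described here encode the contractile and adhesive actin machinery of the cell. They are 35 actins, tropomyosins, myosin subunits, actin-binding proteins and focal adhesion proteins, taken by gene name from a deposited expression table of 25369 genes, in which every one of the 35 names was found. The genes were chosen by function with results of the knockdown comparison, HIF1A-KD against shCtrl RPKM values, already known. The differences between the groups below are therefore descriptions, and the p-values, which come from a fit over all genes, say how a difference compares with the spread between libraries and are no independent support for the list.

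RNA was sequenced from EPC2-hTERT cells, a telomerase-immortalised line of human esophageal keratinocytes. HIF1A-KD cells carried a lentiviral short hairpin RNA against HIF1A, the gene of the oxygen-sensitive HIF-1α protein, and shCtrl cells carried a control hairpin. Each group had 4 libraries, numbered 1 to 4. All cells were grown for 2 days to confluence on membranes with 0.4 µm pores, kept for 5 days in 1.8 mM calcium chloride and then exposed to air for 4 days, conditions under which keratinocytes stratify. Pituitary extract at 50 µg/ml and epidermal growth factor at 1 ng/ml are listed for the cultures of both groups. Both groups are stable lines, and the labels say neither whether a line is a single clone nor whether the 4 libraries came from separate cultures, so the p-values may measure technical spread only. The labels mention a vehicle and the hydroxylase inhibitor dimethyloxalylglycine without assigning either to a library. The study concerns HIF-1α in the differentiation of the epithelium in eosinophilic esophagitis.

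Actin monomers polymerise into filaments that tropomyosins wrap and stabilise. Non-muscle myosin II, built of heavy chains and light chains, pulls on these filaments, and phosphorylation of its regulatory light chains switches the motor on. Alpha-actinins and filamins cross-link the filaments, and talin, vinculin, zyxin and paxillin tie them to integrins at focal adhesions. In stratified epithelium this machinery shapes cell attachment to the matrix, tension at cell junctions and migration in wound repair. Many of its genes are known targets of the serum response factor SRF, which binds a DNA element called the CArG box.

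The implied read totals ran from 38068729 to 65326907 in HIF1A-KD libraries and from 43205845 to 52401547 in shCtrl libraries. The target transcript HIF1A held 27.6, 19.0, 54.8 and 45.0 RPKM (reads per kilobase, scaled to equal library totals) in HIF1A-KD libraries 1 to 4, against 95.2, 51.4, 89.8 and 122 RPKM in shCtrl libraries 1 to 4. It was lower in 4 of 4 numbers, but HIF1A-KD 3 lay above shCtrl 2. Its log2 difference was −1.34, with an adjusted p of 0.319 in limma without a block and 0.0253 once library number was added as a block. The epithelial markers KRT5 (4977 ± 381 RPKM in HIF1A-KD and 5261 ± 991 RPKM in shCtrl) and KRT14 (4762 ± 566 RPKM in HIF1A-KD and 4347 ± 593 RPKM in shCtrl; SD, n = 4 each) were abundant in all libraries. Of 9 fibroblast markers 7 stayed under 0.5 RPKM in all libraries, THY1 at 0, while COL1A1 held 14.1 to 19.2 RPKM in HIF1A-KD and 21.2 to 27.7 RPKM in shCtrl; its part in the results was not tested. Of 7 smooth muscle markers 6 did so, with DES at 0 and MYH11 at no more than 0.0632 RPKM. Among the 10 epithelial markers 5 estimates were below 0. KRT15 ran from 191 to 855 RPKM in HIF1A-KD and from 73.5 to 353 RPKM in shCtrl. KRT13 ran from 367 to 1081 RPKM in HIF1A-KD and from 25.7 to 676 RPKM in shCtrl. Each was higher in 4 of 4 numbers and passed neither fit. EPCAM reached no more than 1.41 RPKM. Of 6 leukocyte markers 3 stayed under 0.5 RPKM in all libraries, with PTPRC and CD3E at 0. CD68 ran from 19.0 to 85.7 RPKM in HIF1A-KD and from 23.5 to 115 RPKM in shCtrl. CD14 held 3.26 ± 2.02 RPKM in HIF1A-KD and 4.85 ± 3.65 RPKM in shCtrl (SD, n = 4 each), and CD79A reached no more than 1.14 RPKM. Of 5 endothelial markers 4 stayed under 0.5 RPKM in all libraries. VWF ran from 1.39 to 12.6 RPKM in HIF1A-KD and from 0.652 to 15.3 RPKM in shCtrl. The part of these markers in the results was not tested.

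MYL9, TPM1, ZYX and MYL6 were the 4 genes of the list whose HIF1A-KD libraries all lay below all shCtrl libraries, and no tested gene of the list lay wholly above. Over all 11899 genes tested, 2.13% lay wholly below and 3.27% wholly above. MYL9 encodes a regulatory light chain typical of contractile cells, TPM1 a tropomyosin, ZYX the focal adhesion protein zyxin and MYL6 the essential light chain of non-muscle myosin. The first 3 fell in the fit that takes the library number as a block, called the paired fit below. Its pairing by number is uncertain for numbers 3 and 4. None of the 3 was called in that fit without number 2, MYL9 was not called without number 4, and ZYX was called in no fit that left out a number; TPM1 was called without number 1, 3 or 4.

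MYL9 (chromosome 20, 35169887 to 35178226, plus strand, hg19) held 2.95, 9.05, 8.88 and 5.05 RPKM in HIF1A-KD 1 to 4, against 31.7, 38.1, 26.2 and 23.3 RPKM in shCtrl 1 to 4. The highest HIF1A-KD library was thus well under the lowest shCtrl library. The means were 6.48 ± 3.00 RPKM in HIF1A-KD and 29.8 ± 6.52 RPKM in shCtrl (SD, n = 4 each), so HIF1A-KD was at 21.8% of shCtrl. These values rest on 161 to 708 reads per HIF1A-KD library and 1330 to 1968 reads per shCtrl library. The log2 difference of MYL9 was −2.29 (SE 0.36), with an adjusted p of 0.0629 in limma without a block and 0.0253 in the paired fit. Among libraries 1 and 2 it was −2.72, and among libraries 3 and 4 it was −1.87.

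TPM1 (chromosome 15, 63334838 to 63364113, plus strand, hg19) held 15.9, 17.4, 31.8 and 31.2 RPKM in HIF1A-KD 1 to 4, against 47.1, 58.0, 78.7 and 86.3 RPKM in shCtrl 1 to 4. In each group libraries 3 and 4 were higher than libraries 1 and 2, and the ratio between the groups stayed much alike. The log2 difference within a number was −1.56, −1.73, −1.31 and −1.46 for numbers 1 to 4. Its overall value was −1.52 (SE 0.30 unpaired and 0.10 paired; adjusted p = 0.145 in limma without a block and 0.00435 in the paired fit).

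ZYX (chromosome 7, 143078360 to 143088206, plus strand, hg19) held 89.6, 114, 119.7 and 109 RPKM in HIF1A-KD 1 to 4, against 127, 185, 202 and 189.5 RPKM in shCtrl 1 to 4. HIF1A-KD was at 61.5% of the shCtrl mean, and the nearest libraries were HIF1A-KD 3 and shCtrl 1. The log2 difference of ZYX was −0.69 (SE 0.19; adjusted p = 0.327 in limma without a block and 0.0251 in the paired fit). MYL6 (chromosome 12, 56552045 to 56555366, plus strand, hg19) held 520.4, 669, 538 and 619.5 RPKM in HIF1A-KD 1 to 4, against 689, 948, 875 and 711 RPKM in shCtrl 1 to 4. Its groups were apart by little, with a log2 difference of −0.45 that did not pass (adjusted p = 0.527 in limma without a block and 0.0890 in the paired fit).

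**Figure D1:**
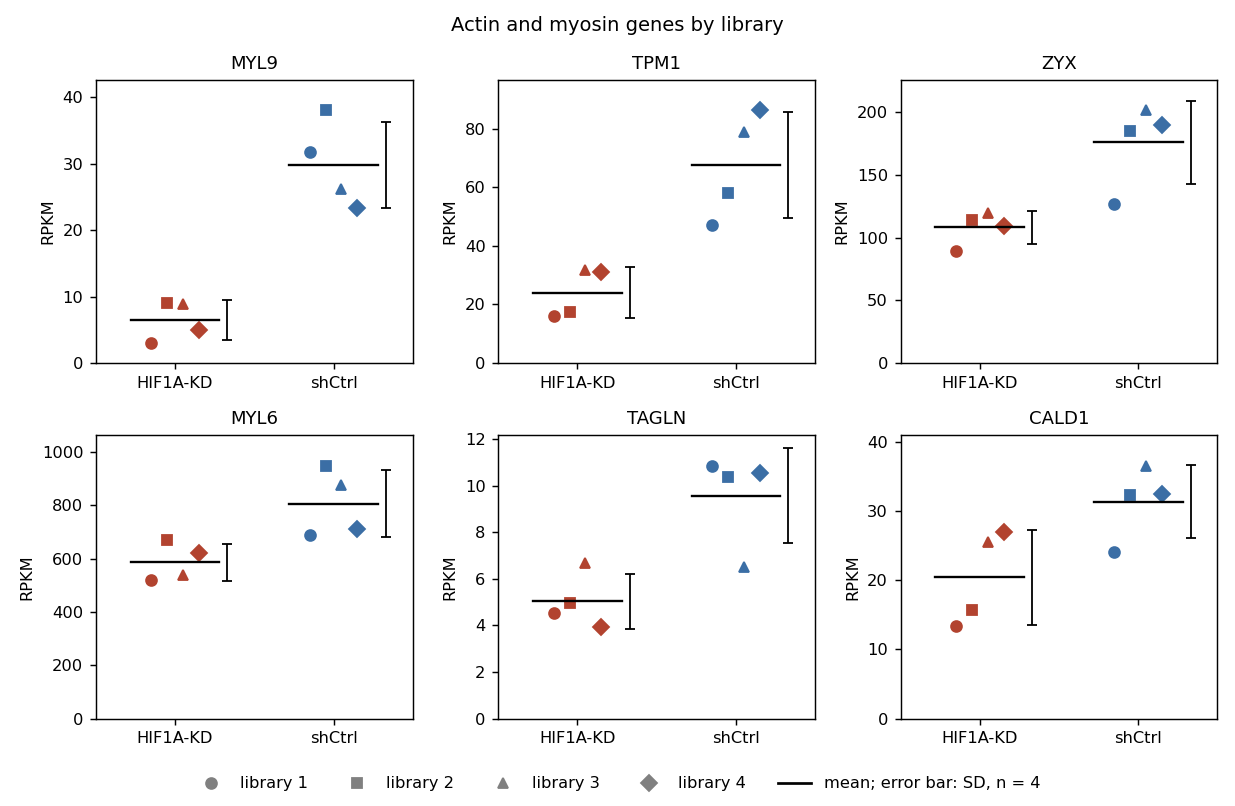
Expression in RPKM (vertical axes, linear from 0) of MYL9, TPM1, ZYX, MYL6, TAGLN and CALD1 in 4 HIF1A-KD and 4 shCtrl libraries. Marker shape gives the library number, horizontal lines the mean and error bars the SD; the groups are apart for the first 4 genes, while TAGLN and CALD1 overlap.

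Of the 35 genes, 34 passed the filter on low values and CNN1 did not. None of the 34 passed limma without a block, where 0.042% of all tested genes did, by direction 0.0168% lower and 0.0252% higher. At an unadjusted p under 0.05, 6 of the 34 were lower and 0 higher in HIF1A-KD, against 3.11% and 4.69% of all genes. Limma-voom on reads recovered from the table also called none of them. In the paired fit 3 were lower and 0 higher, where 1.83% of all genes were called, 1.09% lower and 0.74% higher. At an unadjusted p under 0.05 that fit had 15 of the 34 lower and 1 higher, against 7.74% and 11.9% of all genes. With the split of the library numbers (described below) as a term instead, MYL9 and TPM1 were lower and 0 were higher, where 0.857% of all genes were called, 0.513% lower and 0.345% higher. The median log2 difference of the 34 was −0.26, against 0.06 for all tested genes, and 29 estimates were below 0, as were 41.3% of all. With median-of-ratios scaling 31 were below 0, as were 51.1% of all. Lower values in 4 of 4 numbers were seen for 15 of the 34 and for 10.7% of all genes. Higher values in 4 of 4 were seen for PDLIM1 alone and for 18.6% of all. Both counts match libraries by number, which is uncertain for numbers 3 and 4. Nothing is read from these counts, since the list was made with this comparison known.

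The authors' deposited table, made by an unstated tool, does not name its groups in its columns; its values below 0 were read as lower in HIF1A-KD because 1155 of the 1155 genes it calls that were tested here had the same sign in the fit. It lists 13 of the 35 at an adjusted p under 0.05. All 13 are lower in HIF1A-KD, the direction in which that table lists 5.08% of its 13627 genes, against 3.94% in the other. Its moderated log2 values run from −1.84 for MYL9 and −1.53 for TPM1 to −0.38 for LIMA1. The other 10 are ZYX, FLNA, CALD1, TAGLN, MYL6, MYH9, TAGLN2, TLN1, ACTN1 and PDLIM7, and of these ZYX passed the paired fit over all 8 libraries.

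**Figure D2:**
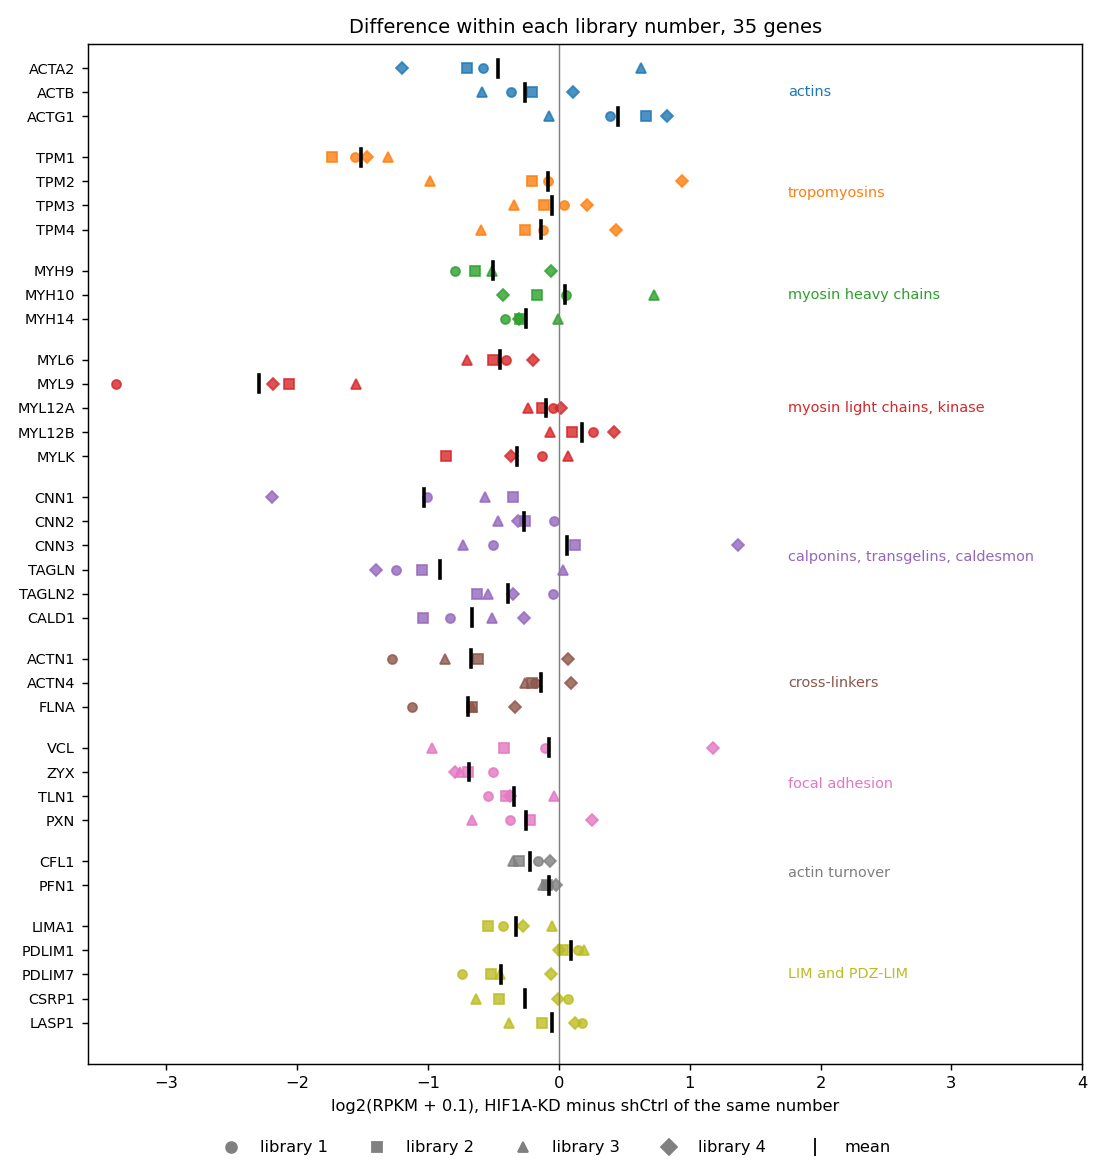
Difference in log2(RPKM + 0.1) between HIF1A-KD and shCtrl of the same library number (horizontal axis) for 35 genes in rows, coloured by role. Marker shape gives the number and the black bar the mean of 4 differences; MYL9 and TPM1 lie farthest to the left, and numbers 3 and 4 fall on opposite sides for VCL, TPM2 and CNN3.

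The cytoplasmic actins took up between 41.3% and 63.1% of the summed RPKM of the list. ACTB, which encodes beta-actin, held 2253, 3844, 2059 and 2517 RPKM in HIF1A-KD 1 to 4, against 2911, 4424, 3091 and 2331 RPKM in shCtrl 1 to 4. ACTG1, which encodes gamma-actin, held 1952, 3467, 1706 and 2240.0 RPKM in HIF1A-KD 1 to 4, against 1489, 2187, 1796 and 1266 RPKM in shCtrl 1 to 4. Neither gene passed a fit (log2 difference −0.26, adjusted p = 0.934 unpaired and 0.313 paired for ACTB; 0.45, 0.778 and 0.184 for ACTG1), and the groups overlapped for each.

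The balance between them parted the groups. ACTG1 was added after its values were seen, and how often the share of a gene pair parts the groups was not tested. Gamma-actin made up 46.4%, 47.4%, 45.3% and 47.1% of the summed RPKM of ACTB and ACTG1 in HIF1A-KD 1 to 4, against 33.8%, 33.1%, 36.7% and 35.2% in shCtrl 1 to 4. The means were 46.6% ± 0.928 in HIF1A-KD and 34.7% ± 1.61 in shCtrl (SD, n = 4 each). A share within a library does not depend on how libraries are scaled, and it shows unequal change without saying which gene moved. The encoded proteins are nearly identical, but the transcripts differ enough to be told apart: only 0.347% of the 50-base stretches of ACTB transcripts also occur in ACTG1 transcripts, and 6.66% occur in any other gene. The read length is unstated. ACTA2, the smooth muscle alpha-actin gene, was low, at 1.65 to 4.36 RPKM in HIF1A-KD and 2.74 to 5.21 RPKM in shCtrl, and its groups overlapped.

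**Figure D3:**
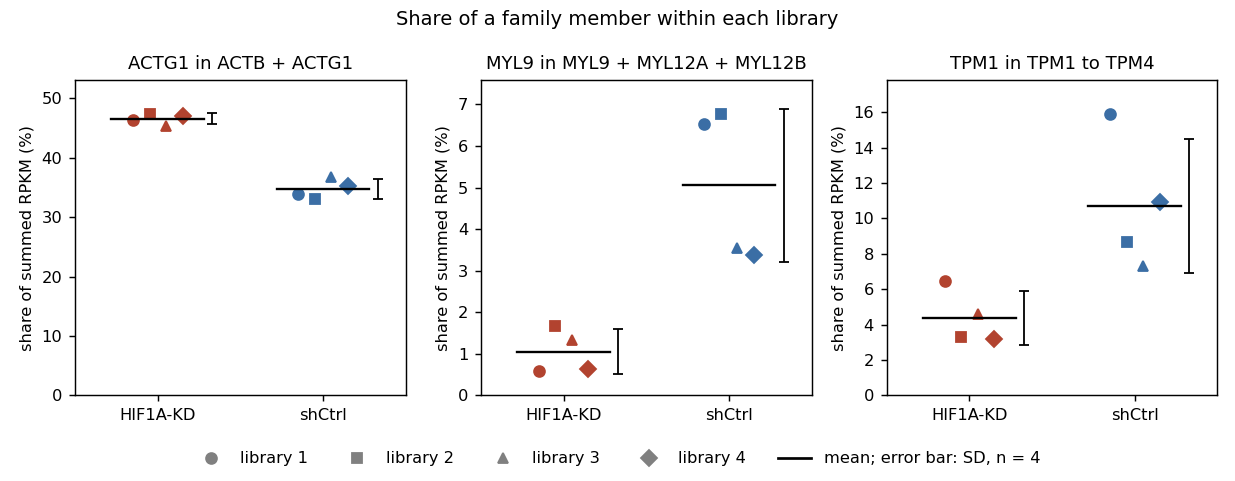
Share of ACTG1 in the summed RPKM of ACTB and ACTG1, of MYL9 in that of MYL9, MYL12A and MYL12B, and of TPM1 in that of TPM1 to TPM4 (vertical axes in percent, from 0), in HIF1A-KD and shCtrl libraries. Lines are means and error bars SD (n = 4). In each panel the groups do not overlap, with ACTG1 higher and MYL9 and TPM1 lower in HIF1A-KD. MYL9 and TPM1 were already apart in RPKM. The shares of MYH9, TAGLN, ACTN1, CNN2, TPM2, TPM3 and TPM4 within their families, not drawn, overlapped. How often such shares part the groups over all genes was not tested.

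TPM4 was the most abundant tropomyosin and did not pass a fit. It held 205, 471, 625 and 902 RPKM in HIF1A-KD 1 to 4, against 222, 563, 944 and 667 RPKM in shCtrl 1 to 4, and its log2 difference was −0.13 (SE 0.53, adjusted p = 0.995 in limma). Within each group TPM4 varied over 4-fold, with library 1 lowest. TPM1 made up 6.45%, 3.28%, 4.59% and 3.17% of tropomyosin RPKM in HIF1A-KD 1 to 4, against 15.9%, 8.67%, 7.32% and 10.9% in shCtrl 1 to 4. TPM2 held 11.2 to 21.7 RPKM in HIF1A-KD and 11.2 to 23.7 RPKM in shCtrl. TPM3 held 14.8 to 28.8 RPKM in HIF1A-KD and 14.4 to 29.5 RPKM in shCtrl. The groups of TPM2 and TPM3 covered almost the same range. The level of TPM3 is set per kilobase of a long gene model, 11580 bases, and tropomyosin genes make several isoforms that a single value per gene does not separate.

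MYH9, the main non-muscle heavy chain here, held 64.3, 130.4, 104 and 125 RPKM in HIF1A-KD 1 to 4, against 112, 204, 148 and 129.9 RPKM in shCtrl 1 to 4. It was lower in 4 of 4 numbers with overlapping groups and did not pass (log2 difference −0.50, adjusted p = 0.759 in limma without a block and 0.117 in the paired fit). MYH10 ran from 3.96 to 6.51 RPKM in HIF1A-KD and from 3.90 to 5.36 RPKM in shCtrl, and MYH14 from 2.56 to 6.65 RPKM in HIF1A-KD and from 3.43 to 8.23 RPKM in shCtrl. MYH9 accounted for 91.3% ± 2.44 of heavy chain RPKM in HIF1A-KD and 93.2% ± 2.10 in shCtrl (SD, n = 4 each).

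MYL12A and MYL12B, the widely expressed regulatory light chains, stood far above MYL9. MYL12A held 178 to 267 RPKM in HIF1A-KD and 185 to 264 RPKM in shCtrl, and MYL12B held 324 to 534 RPKM in HIF1A-KD and 269.6 to 453 RPKM in shCtrl. Neither passed a fit, and their groups overlapped. MYL9 therefore made up 0.582%, 1.68%, 1.34% and 0.626% of regulatory light chain RPKM in HIF1A-KD 1 to 4, against 6.52%, 6.78%, 3.54% and 3.39% in shCtrl 1 to 4. MYL12B made up 65.9% ± 1.08 of the MYL12A and MYL12B sum in HIF1A-KD and 61.4% ± 2.01 in shCtrl (SD, n = 4 each), again without overlap. No 50-base stretch of MYL9 transcripts occurs in MYL12A or MYL12B transcripts, while 3.95% of those of MYL12A occur in MYL12B. MYLK, which encodes the kinase that phosphorylates these chains, held 1.60 to 4.50 RPKM in HIF1A-KD and 2.00 to 4.83 RPKM in shCtrl.

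Calponins, transgelins and caldesmon bind filaments and modulate contraction, and several of them are markers of smooth muscle. TAGLN, or SM22-alpha, held 4.53, 4.98, 6.67 and 3.95 RPKM in HIF1A-KD 1 to 4, against 10.9, 10.4, 6.51 and 10.6 RPKM in shCtrl 1 to 4. Only libraries numbered 3 overlapped. Its log2 difference was −0.91 (SE 0.24; adjusted p = 0.294 in limma without a block and 0.126 in the paired fit), and it passed the paired fit without number 3 (adjusted p = 0.0240). CALD1, caldesmon, held 13.4, 15.6, 25.5 and 26.9 RPKM in HIF1A-KD 1 to 4, against 24.0, 32.2, 36.5 and 32.4 RPKM in shCtrl 1 to 4 (log2 difference −0.66; adjusted p = 0.546 in limma without a block and 0.0789 in the paired fit). Its value was −0.94 among libraries 1 and 2 and −0.39 among libraries 3 and 4.

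TAGLN2, the abundant epithelial transgelin, held 237, 263, 204 and 215 RPKM in HIF1A-KD 1 to 4, against 244, 407, 298 and 274 RPKM in shCtrl 1 to 4. It was lower in 4 of 4 numbers and did not pass (log2 difference −0.39, paired adjusted p = 0.147 in limma). CNN2 ran from 85.9 to 116 RPKM in HIF1A-KD and from 90.3 to 139 RPKM in shCtrl. CNN3 ran from 6.93 to 43.1 RPKM in HIF1A-KD and from 9.87 to 38.5 RPKM in shCtrl. The smooth muscle calponin CNN1 was close to the detection limit, with 0 to 17 reads in HIF1A-KD libraries and 12 to 44 reads in shCtrl libraries. HIF1A-KD 4 held no CNN1 read, which allows up to 0.0497 RPKM (3 reads, counting error only).

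SMTN, the smooth muscle marker above 0.5 RPKM, was lower on average with overlapping groups, at 8.47 to 26.0 RPKM in HIF1A-KD and 23.9 to 52.7 RPKM in shCtrl. The summed level of the 7 smooth muscle markers was 8.92 to 26.7 RPKM in HIF1A-KD and 24.0 to 53.0 RPKM in shCtrl, nearly all of it SMTN, and its part in the results was not tested. In bulk RNA, fewer cells of a kind and less RNA per cell cannot be told apart. SYNM, below the filter, went the other way without overlap, at 0.380 to 0.4996 RPKM in HIF1A-KD and 0.0934 to 0.308 RPKM in shCtrl. Of 5 markers of cycling cells CCNB1 alone passed the filter, at 0.352 to 1.752 RPKM in HIF1A-KD and 0.705 to 1.93 RPKM in shCtrl, and it passed neither fit. The epithelial cadherin gene CDH1 fell in the paired fit (adjusted p = 0.0318, and 0.545 in limma without a block; up to 0.212 in the paired fit with a number left out), at 52.9 to 132 RPKM in HIF1A-KD and 113 to 189 RPKM in shCtrl. The mucosal keratin KRT4 held 1194 to 1984 RPKM in HIF1A-KD and 188 to 729 RPKM in shCtrl, and the part of either in the results was not tested.

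The cross-linkers were all lower on average and none passed either fit. FLNA, filamin A, held 68.7, 123, 52.0 and 60.9 RPKM in HIF1A-KD 1 to 4, against 149, 195, 82.4 and 76.9 RPKM in shCtrl 1 to 4. It was lower in 4 of 4 numbers (log2 difference −0.70; adjusted p = 0.744 in limma without a block and 0.0617 in the paired fit), and libraries 1 and 2 held more than libraries 3 and 4 in each group. ACTN1, alpha-actinin-1, held 37.3, 113, 62.9 and 84.6 RPKM in HIF1A-KD 1 to 4, against 90.5, 173, 115 and 80.7 RPKM in shCtrl 1 to 4. Without number 4 both genes passed the paired fit, with adjusted p of 0.0482 for ACTN1 and 0.0481 for FLNA. ACTN4, the more abundant alpha-actinin, ran from 144 to 253 RPKM in HIF1A-KD and from 164 to 277 RPKM in shCtrl (log2 difference −0.14).

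Beside ZYX, the focal adhesion genes did not pass a fit. VCL, vinculin, held 19.2, 50.8, 25.7 and 55.0 RPKM in HIF1A-KD 1 to 4, against 20.7, 67.8, 50.5 and 24.2 RPKM in shCtrl 1 to 4. As numbered, 3 and 4 went opposite ways, and the log2 difference was −0.08 (SE 0.46). The pairing of these 2 numbers is uncertain, as described under the processing. HIF1A-KD 3 lay near shCtrl 4 and HIF1A-KD 4 near shCtrl 3, so no opposite response of VCL is read from this. TLN1, talin, which couples integrins to actin, ran from 9.71 to 14.3 RPKM in HIF1A-KD and from 11.8 to 18.9 RPKM in shCtrl. The adaptor PXN, paxillin, ran from 35.3 to 58.9 RPKM in HIF1A-KD and from 45.7 to 69.2 RPKM in shCtrl. Neither passed a fit (paired adjusted p = 0.197 for TLN1 and 0.410 for PXN in limma).

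Neither filament turnover gene passed a fit. CFL1, the severing protein cofilin-1, held 519, 610.0, 578 and 619.9 RPKM in HIF1A-KD 1 to 4, against 579.9, 753, 738 and 649 RPKM in shCtrl 1 to 4. PFN1, the monomer-binding profilin-1, held 295, 381, 625 and 632 RPKM in HIF1A-KD 1 to 4, against 312, 405, 679.7 and 641 RPKM in shCtrl 1 to 4. PFN1 followed the library number closely and its log2 difference was −0.08 (SE 0.08 in the paired fit). Of the LIM proteins, PDLIM1 held 99.0, 89.9, 157 and 139 RPKM in HIF1A-KD 1 to 4, against 89.5, 88.2, 138 and 139 RPKM in shCtrl 1 to 4. LIMA1 ran from 56.4 to 91.8 RPKM in HIF1A-KD and from 76.1 to 102 RPKM in shCtrl. PDLIM7, CSRP1 and LASP1 had log2 differences of −0.44, −0.26 and −0.05, and none of the 5 LIM genes passed either fit.

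A second pattern, across library numbers, was seen over all tested genes and in the list. Libraries 1 and 2 differed from libraries 3 and 4 in both groups, a split that the labels do not explain. For TPM4, MYH14, MYL12A, MYL12B, MYLK, PFN1, LIMA1 and PDLIM1 all libraries numbered 3 and 4 were above all numbered 1 and 2, and for no tested gene of the list were they all below. Among all tested genes 13.3% were above in this way and 14.6% below, against 8 and 0 of the 34 tested genes of the list. Nothing particular to the list is read from these counts. The ratio of libraries 3 and 4 to libraries 1 and 2 for these 8 genes ran from 1.37 to 2.41 in HIF1A-KD and from 1.24 to 2.05 in shCtrl. FLNA went the other way, at 0.59 in HIF1A-KD and 0.46 in shCtrl. Libraries 1 and 2 also had more genes above 0, 17056 to 17205 in HIF1A-KD and 16580 to 17056 in shCtrl, than libraries 3 and 4, with 13901 to 14865 in HIF1A-KD and 13799 to 15347 in shCtrl. The part of this gap in the ratios was not tested.

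**Figure D4:**
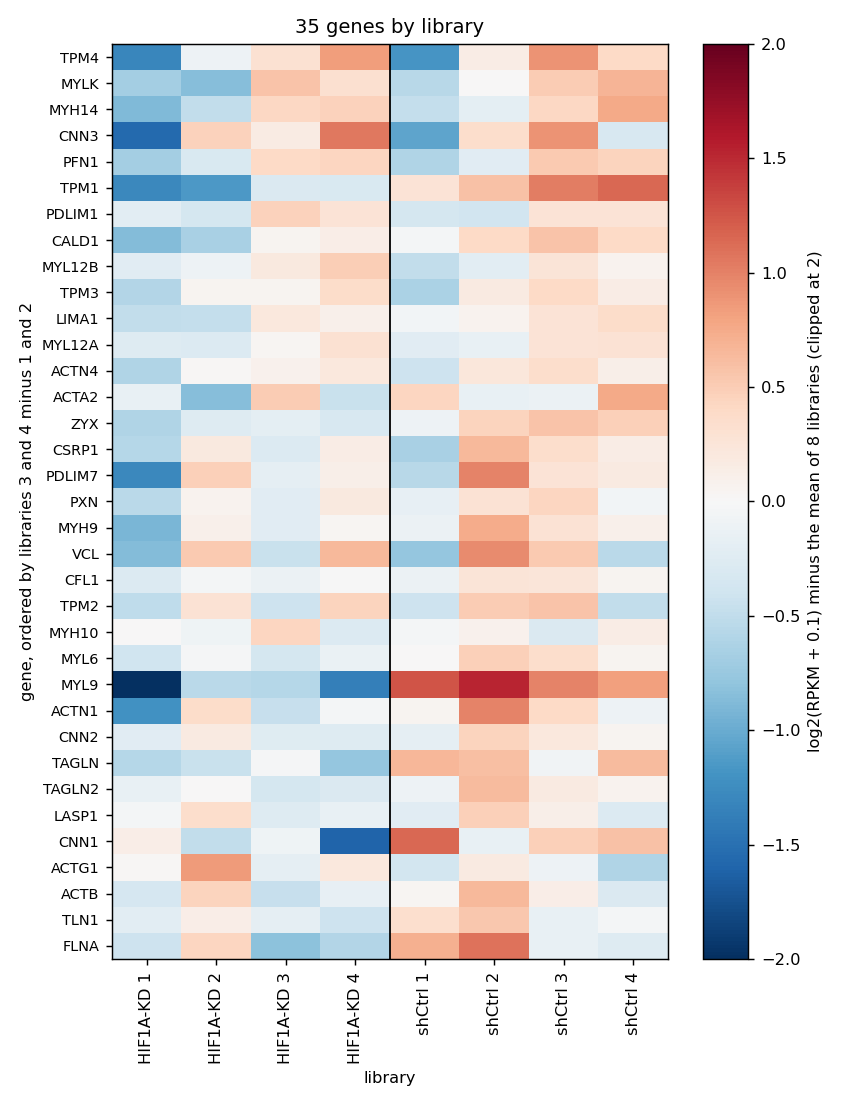
Level of 35 genes (rows) in 8 libraries (columns, HIF1A-KD left of shCtrl), as log2(RPKM + 0.1) minus the gene's mean over the 8 libraries, with colours clipped at 2. Rows run from genes higher in libraries 3 and 4, led by TPM4, to FLNA, which was lower there; MYL9 and TPM1 part the 2 groups.

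Other genes of the pathway, in lists of actin regulators that do not overlap the 35, gave 1 call among those described here. Of 17 tested Arp2/3 subunits and nucleators, 15 capping, severing and monomer-binding genes, 20 adhesion adaptors and kinases and 11 integrins, 0 passed in limma without a block or in the paired fit, where 0.042% and 1.83% of all tested genes did, so that nothing particular to these lists is read from it. The most abundant nucleation gene ARPC2, a subunit of the Arp2/3 complex, held 333 ± 78.7 RPKM in HIF1A-KD and 368 ± 82.7 RPKM in shCtrl (SD, n = 4 each), and ARPC3 held 154 ± 21.3 RPKM in HIF1A-KD and 204 ± 27.1 RPKM in shCtrl. The monomer-binding thymosin TMSB10 held 2221 ± 509 RPKM in HIF1A-KD and 2893 ± 637 RPKM in shCtrl, and TMSB4X held 1114 ± 321 RPKM in HIF1A-KD and 1202 ± 398 RPKM in shCtrl. The adaptor TNS4 held 252 ± 123 RPKM in HIF1A-KD and 233 ± 113 RPKM in shCtrl, and VASP held 60.0 ± 12.98 RPKM in HIF1A-KD and 63.2 ± 18.6 RPKM in shCtrl. The integrin ITGB1 held 204 ± 81.6 RPKM in HIF1A-KD and 213 ± 72.5 RPKM in shCtrl, and ITGA3 held 177 ± 16.2 RPKM in HIF1A-KD and 190.4 ± 9.65 RPKM in shCtrl. The groups overlapped for all 8 of these genes. The medians of these lists lay between −0.27 for the adaptors and kinases and 0.03 for the nucleators, on the log2 scale, and 16 of 20 adaptor estimates were below 0. Among 16 tested bundling and membrane-linking genes MARCKSL1, whose product binds actin at the plasma membrane, fell in the paired fit (adjusted p = 0.0181, and 0.319 in limma without a block; up to 0.170 in the paired fit with a number left out). It held 29.8, 57.6, 33.1 and 37.1 RPKM in HIF1A-KD 1 to 4, against 65.5, 108, 69.8 and 59.0 RPKM in shCtrl 1 to 4, and every HIF1A-KD library was below every shCtrl library.

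The transcription factor SRF held 32.2 ± 12.5 RPKM in HIF1A-KD and 32.3 ± 12.3 RPKM in shCtrl (SD, n = 4 each). Its cofactor MKL1 held 7.81 ± 1.84 RPKM in HIF1A-KD and 7.83 ± 1.27 RPKM in shCtrl. Of 13 tested genes of a list of SRF and YAP target type, 0 passed either fit, and JUNB held 326 ± 63.7 RPKM in HIF1A-KD and 278 ± 37.2 RPKM in shCtrl. Levels of these transcripts say nothing of the activity of the factors.

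Start-site sequences are shown for 2 genes that fell in the paired fit, TPM1 and ZYX, and for ACTG1 and FLNA, whose windows hold a CArG box. Each is the 250 bases before the RefSeq gene start (GRCh38.p14), 5′ to 3′ on the gene's strand, at chr15:63048239-63048488 (plus strand), chr7:143381095-143381344 (plus strand), chr17:81512800-81513049 (minus strand) and chrX:154374635-154374884 (minus strand) in that order. Capitals mark CArG boxes and matches to ACGTG, searched on both strands. ACGTG is a form of the core of hypoxia response elements, and the form GCGTG was not searched.
TPM1: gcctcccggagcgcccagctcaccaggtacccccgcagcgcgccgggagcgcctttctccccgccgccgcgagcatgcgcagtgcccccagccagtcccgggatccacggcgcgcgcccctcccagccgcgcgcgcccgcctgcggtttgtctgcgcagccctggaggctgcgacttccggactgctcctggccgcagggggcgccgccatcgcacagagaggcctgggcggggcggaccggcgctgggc
ZYX: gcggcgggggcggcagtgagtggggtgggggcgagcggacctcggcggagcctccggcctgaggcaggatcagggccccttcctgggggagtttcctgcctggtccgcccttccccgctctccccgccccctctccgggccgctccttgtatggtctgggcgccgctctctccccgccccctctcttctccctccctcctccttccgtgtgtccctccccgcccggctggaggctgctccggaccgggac
ACTG1: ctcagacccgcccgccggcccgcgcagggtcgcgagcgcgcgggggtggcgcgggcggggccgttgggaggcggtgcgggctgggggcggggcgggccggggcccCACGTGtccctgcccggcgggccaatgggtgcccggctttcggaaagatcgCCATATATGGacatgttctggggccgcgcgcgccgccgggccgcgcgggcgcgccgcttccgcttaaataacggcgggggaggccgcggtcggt
FLNA: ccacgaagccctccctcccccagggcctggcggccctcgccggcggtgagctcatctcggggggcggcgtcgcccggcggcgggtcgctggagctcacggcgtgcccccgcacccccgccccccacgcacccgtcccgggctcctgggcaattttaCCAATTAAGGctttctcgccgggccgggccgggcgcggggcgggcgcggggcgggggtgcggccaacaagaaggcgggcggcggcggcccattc
The TPM1 and ZYX windows hold neither motif. ACTG1 and FLNA each have a CArG box that begins 94 bases before the start. The 2 ACGTG matches of ACTG1 lie on opposite strands and overlap. Windows were found for 32 of the 35 genes, 55 windows in all, and not for MYL9, ACTB and TAGLN. A CArG box was in 6 of the 55 (ACTG1, ACTN1, CNN2, FLNA, MYLK and TPM4) and in 1.16% of all 35116 windows. ACGTG was in 7 of the 55 and in 18.5% of all windows.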

How the data were processed

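RNA was column-purified and libraries were built with a NEBNext Ultra kit, per the labels' protocols. The submitters' processing notes list TopHat2 2.0.13 and HTSeq 0.6.1, among others, with builds hg19 and hg38 and no role for either. The gene positions carry hg19 haplotype contig names, so hg19 is given for them. No source used here says whether reads were counted by strand. The deposited table holds RPKM by the authors, although it is named for counts. Multiplied by length, the values of a library were whole multiples of what 1 read is worth (100% of them, within 0.01 read; genes of unreadable length left out), which gave the read totals. The authors' second deposited table gives a fold ratio, its log2 and p-values for 13627 genes. Reads per gene limit precision, and no interval was computed for single libraries.

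The main test was limma 3.58.1 (R 4.3.3) on log2(RPKM + 0.1), two-sided, with trend and robust moderation, over the 11899 genes that reached 0.5 RPKM in 4 or more libraries. P-values were adjusted by Benjamini and Hochberg over all of them, with a threshold of 0.05. Differences on this scale understate those of low genes. The library number served as a block in the paired fit. Deviations from group means correlated between libraries of the same number (0.754, 0.7295, 0.252 and 0.257 for numbers 1 to 4), which is over 0.1 in each, so the numbers were used as pairs. The labels are silent, so the pairing rests on correlations of the same expression values that the fit tests. The limit of 0.1 does not single out same-number pairs, since HIF1A-KD 2 with shCtrl 1 (0.12) also passed it. All calls of the paired fit depend on this choice. For numbers 3 and 4 the pairing is uncertain, since HIF1A-KD 4 correlated more with shCtrl 3 (0.463) and HIF1A-KD 3 more with shCtrl 4 (0.613). On simulated data with known changes the fit without a block made no false call. The paired fit recovered more of the changes but called more unchanged genes than its threshold allows, most of them genes with few reads. In the simulation libraries of the same number always shared an effect, with no split of the numbers and no crossed numbers. It therefore does not give the error rate of either fit in these data.

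The 35 genes and all other lists were chosen with earlier results of these data known. Genes given library by library were those called in either fit, those whose groups did not overlap and the most abundant of each role; ACTG1, TAGLN, CALD1, FLNA, ACTN1, VCL and PFN1 were added after their values were seen, as was SMTN. Of each further pathway list, called genes or the 2 most abundant were named, as far as they are reported here. Promoter windows came from RefSeq (GRCh38.p14) and 50-base stretches from GENCODE transcripts, which served only for sequence comparison. Alternatives were other pseudocounts (1 and 0.01), filters, scaling, limma-voom on recovered reads, the block, the split of libraries 1 and 2 from 3 and 4, and leaving out libraries. Some results are not reported here.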

Additional observations from a re-analysis of the deposited data

Results flagged for a closer look

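In 3 groups of 4 a single library stood far from the other libraries of its group, by Dixon's limit for 4 samples. Chance flags about 1 in 20 groups, and 94 groups were examined. CNN2 held 116 RPKM in HIF1A-KD 2, against 85.9 to 87.8 RPKM in the other HIF1A-KD libraries. TAGLN held 6.51 RPKM in shCtrl 3, against 10.4 to 10.9 RPKM in the other shCtrl libraries. TAGLN made up 3.16% of the TAGLN and TAGLN2 sum in HIF1A-KD 3, against 1.80% to 1.88% in the other HIF1A-KD libraries.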

How the results depend on the processing

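Of the 35 genes 0 passed the main test; 3 passed with the replicate block (MYL9, TPM1 and ZYX) and 2 with the split of libraries 1 and 2 from 3 and 4 as a term (MYL9 and TPM1). With the block and a number left out of both groups, 2 passed without number 1, 0 without number 2, 3 without number 3 and 3 without number 4, so the paired calls of MYL9, TPM1 and ZYX were all lost without number 2. TPM1 was called without number 1, 3 or 4, MYL9 without 1 or 3 and ZYX in no fit that left out a number. The paired adjusted p over these fits ran from 0.00435 to 0.0586 for TPM1, from 0.0253 to 0.170 for MYL9 and from 0.0251 to 0.192 for ZYX. Over all genes the main test called 5. It called 3 with a pseudocount of 1 or 0.01 and in limma-voom, 1 without a filter, 8 with median-of-ratios scaling, 218 with the block, 102 with the split term, 0 in libraries 1 and 2 alone, and 5 in libraries 3 and 4 alone or with a filter of 1 RPKM. With 1 library left out it called 0 to 3, and with the block and a number left out 33, 1, 195 and 182 for numbers 1 to 4. For 11 genes under 22 settings, 7 of 242 log2 differences changed sign, none of a called gene. With 1 library left out TPM4 ran from −0.55 (without shCtrl 1) to 0.28 (without HIF1A-KD 1), ACTN4 from −0.30 (without shCtrl 1) to 0.039 (without HIF1A-KD 1) and PDLIM1 from −0.046 (without HIF1A-KD 3) to 0.22 (without HIF1A-KD 2). Without a sign change, ACTB ran from −0.45 (without HIF1A-KD 2) to −0.09 (without shCtrl 2), MYH9 reached −0.28 without HIF1A-KD 1 and TAGLN2 −0.24 without shCtrl 2, each over 1.5 times from its value in all libraries; MYL9, TPM1, ZYX, MYL6 and CFL1 moved less than that. TPM4 was at 0.020 with the block without number 3. The cause of these changes was not tested. Median-of-ratios scaling moved the median of all genes by −0.07 and put 31 of the 34 estimates below 0, against 51.1% of all genes. With 4 libraries a group, a gene not called is not shown to be unchanged.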

Other observations

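Some deposited gene models of the list overlap another gene on the opposite strand, and without stated strand use their reads cannot be told apart. FAS, across from ACTA2, averaged 3.07 RPKM in HIF1A-KD and 3.21 RPKM in shCtrl, close to the level of ACTA2 itself. EPHA1, across from ZYX, averaged 19.2 RPKM in HIF1A-KD and 18.0 RPKM in shCtrl, and CREB3, across from TLN1, averaged 8.82 RPKM in HIF1A-KD and 8.46 RPKM in shCtrl. The gene across from MYL9 was at no more than 0.0684 RPKM in any library. Sequence shared with another gene was most extensive for TPM4, at 11.7% of 50-base stretches, then for TAGLN2 (6.89%), ACTB (6.66%), MYL12B (5.86%) and MYL12A (5.77%), and it was 0 for MYL9, ZYX, TAGLN and CALD1. For TPM1 it was 1.20%.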
